A study of Homo sapiens with 9 samples.

Results

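HepG2 cells carrying the second of 2 short hairpin RNAs (shRNAs) against SETD2, called hairpin 2 here (shSETD2#2 in the labels), were compared with HepG2 cells carrying a non-specific control shRNA (shCtrl). HepG2 is an established human hepatocellular carcinoma line. Both kinds of cell were infected with lentivirus carrying the shRNA and kept under puromycin selection, so infection and selection are common to both, and no clone is named in the labels. Each shRNA has 3 labelled replicates, which makes 6 of the 9 samples of the series; the other 3 carry a first SETD2 hairpin (hairpin 1, shSETD2#1), whose values are given at some of the sites. The labels assign 1 pooled list of sites to the 3 replicates of an shRNA, so replicate error is unknown throughout and no difference between the lists was tested. All 3755 sites of the control list and all 697 sites of the hairpin 2 list were taken, and a site was shared when its chromosome, position and strand were the same in both.

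N6-methyladenosine (m6A) is placed on nascent mRNA by a complex built on METTL3 and METTL14, and reader proteins of the YTH family bind it and act on the splicing, stability and translation of the transcript. The enzyme SETD2 adds the third methyl group to lysine 36 of histone H3 over the bodies of transcribed genes. METTL14 is known to bind that histone mark, which is the question behind a SETD2 knockdown in a map of m6A. The map is of C-to-T changes in reads from RNA immunoprecipitated with an m6A antibody. The series calls the assay miCLIP, where such changes mark the crosslinked base beside the m6A, while the sample titles call it m6A-seq. The protocol in the labels gives no crosslinking step, so the positions are called sites here as the authors' lists name them.

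Each listed site is 1 base of build hg19 with a numbered name and a score. These running numbers go up to 73157 in control and 13154 with hairpin 2, so most numbers have no listed site. The rule that left them out is not stated in the sources used here. Scores are whole numbers set by the authors, at least 3, and were read here as the number of reads over each site. This is an inference: the running numbers order all 3755 control and all 697 hairpin 2 sites by the binomial probability of their C-to-T reads among that many reads, at a fitted background rate of 1.57% in control and 1.00% with hairpin 2. With the scores shuffled among the sites, the same procedure placed at most 70 control and 45 hairpin 2 sites in order over 3 shuffles. The order also gives the number of C-to-T reads, exact at 98.6% of control and 97.0% of hairpin 2 sites, which is called reconstructed below. Neighbouring sites can rest on the same reads: of the site pairs at most 20 nt apart on a strand, 11 of 42 in control and 3 of 7 with hairpin 2 had identical scores. Library depths were not used here, the scores summed to 256360 in control and 51597 with hairpin 2, and no ratio below is scaled for depth unless that is stated. Intervals are 95% exact intervals. Those of the C-to-T share or score ratio of a single site cover the counting error of reads only, and reads are not independent molecules. Those of shares and medians over many sites take the sites as independent, although neighbouring sites can rest on the same reads. None covers a spread between replicates. Names of genes, transcript regions, sequence motifs, the level of the SETD2 transcript and markers of hepatocytes were not analysed here, so the knockdown and the cell type rest on the labels.

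The hairpin 2 list was not a subset of the control list. The lists had 244 sites in common, which was 6.50% of the control sites (interval 5.73 to 7.33) and 35.0% of the hairpin 2 sites (31.5 to 38.7). The other 453 hairpin 2 sites, 65.0% of that list, had no control site at the same base, although the summed score of the control list was the larger. Near misses were few. Among the 439 nuclear hairpin 2 sites that were not in control, 1 lay within 10 nt of a control site on its strand, 19 (4.33%) within 50 nt and 84 (19.1%) within 5000 nt. Within and between the lists, no 2 sites on a strand lay closer than 8 nt.

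Whether a control site was found again with hairpin 2 depended on how many reads covered it in control. Of the 933 control sites with a score of 3 to 5, 11 were in the hairpin 2 list, or 1.18% (interval 0.590 to 2.10). The share was 6.34% (4.70 to 8.35) at scores of 20 to 49, 15.4% (11.3 to 20.2) at 100 to 199 and 60.7% (46.8 to 73.5) at 500 or more, where 34 of 56 sites were found. Among control sites with an exact read number, the share also went with the number of C-to-T reads. It was 2.67% at a single reconstructed C-to-T read (1.92 to 3.61), 12.5% at 5 to 9 (9.43 to 16.1) and 64.7% at 20 or more (46.5 to 80.3). Among control sites with a score of 100 or more and an exact read number, 13.3% of those with a C-to-T share of at most 2% were found again (9.22 to 18.4). It was 27.4% at shares above 2% and up to 5% (19.8 to 36.2), and 46.7% at shares above 10% (21.3 to 73.4, 15 sites). An exact number was available at 87 of the 105 deep control sites found again and at 330 of the 337 not found. The sites left out were thus mostly found again, and some had a share above 10%. Position 177027092 of chromosome 5, found again, had at least 21.9% in control. At control scores of 20 to 99, again with exact numbers only, the order was not steady. It was 7.82% at shares of at most 2% (4.34 to 12.8), 3.63% above 2% and up to 5% (2.13 to 5.75), and 16.0% above 10% (11.7 to 21.1).

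In the other direction the dependence on the score was small below 500. Of the 196 hairpin 2 sites with a score of 3 to 5, 31.1% were in the control list (interval 24.7 to 38.1), and of the 68 with a score of 100 to 199 it was 32.4% (21.5 to 44.8). At 500 or more, 10 of 16 hairpin 2 sites were in control (62.5%, 35.4 to 84.8). The intervals at 3 to 5 and at 100 to 199 overlap. The share was also higher with the number of C-to-T reads, from 28.1% of sites with a single one (23.8 to 32.7) to 45.9% of those with 3 to 4 (36.3 to 55.7).

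**Figure D1:**
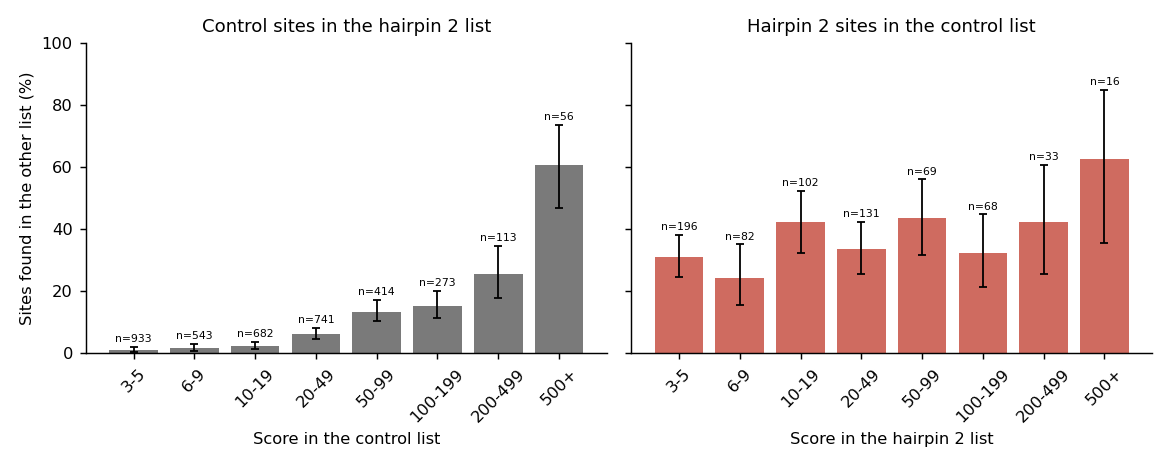
Share of sites found in the other list (percent) by score, for control sites on the left and hairpin 2 sites on the right. Bars are shares, lines are 95% exact intervals and n is the number of sites. Control sites go from 1.18% to 60.7% with rising score, while hairpin 2 sites stay between 24.4% and 43.5% up to a score of 499.

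Deep sites in the hairpin 2 list differed in their C-to-T content according to whether control held them too. With a score of 100 or more, 71 hairpin 2 sites were not in control and 46 were. The median C-to-T share was 0.905% at 70 sites not in control with an exact read number, under the fitted background rate of 1.00%, and 1.34% at 40 sites that were in control. A binomial p under 0.05 at the fitted rate, the quantity behind the authors' order, was reached at 4 of the 71 sites not in control (5.63%, interval 1.56 to 13.8) and at 15 of the 46 in control (32.6%, 19.5 to 48.0). Among the 70 and 40 sites with an exact read number, a single C-to-T read supported 42.9% of those not in control (31.1 to 55.3) and 15.0% of those in control (5.71 to 29.8). The control list had the same arrangement: at a score of 100 or more, 20.2% of 337 sites not found with hairpin 2 reached that limit (16.0 to 24.9), against 53.3% of 105 found again (43.3 to 63.1). Most deep sites listed in 1 of these lists alone thus did not reach that limit over the fitted background of their list. Most of the 46 deep hairpin 2 sites in control did not reach it either, so this was not particular to sites in 1 list alone. The classes were not matched for score. The median score was 159.0 at the hairpin 2 sites not in control and 214.5 at those in control. In the control list it was 154.0 at the sites not found with hairpin 2 and 281.0 at those found again.

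At the 244 shared sites the score was lower with hairpin 2 at 204, equal at 1 and higher at 39, before any scaling for depth. The median log2 ratio of hairpin 2 to control was -2.30, with an interval for the median of -2.52 to -1.95, which is a 4.93-fold lower score. The score was more than 2-fold lower at 178 sites, or 73.0% of the shared sites, and more than 2-fold higher at 22, or 9.02%. Scaling changes this picture. Divided by the median ratio at shared mitochondrial sites, which was 6.50-fold lower, the median shared site came to 0.40 on the log2 scale, above control, with 152 sites higher and 92 lower. Divided by the ratio of the summed scores, it came to 0.01, with 124 higher and 120 lower. Those sums run over listed sites only, so they also carry the number of sites listed and do not measure library depth. The direction of the typical site thus depended on the scaling and cannot be separated from depth here. The spread around it is what the ratios show. No site is listed below a score of 3, so low control scores cannot show a large fall: the median log2 ratio was -0.16 at control scores of 3 to 9 and -2.90 at 500 or more.

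**Figure D2:**
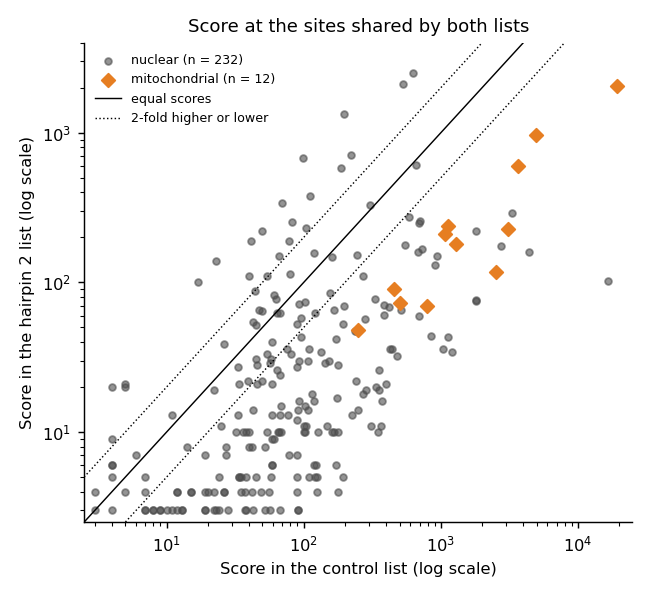
Score with hairpin 2 against score in control at the 244 shared sites, on log axes, with mitochondrial sites as diamonds, a solid line at equal scores and dotted lines at 2-fold differences. All 12 mitochondrial sites lie below the lower dotted line, and 22 nuclear sites lie above the upper one.

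The nuclear sites that were deepest in both lists moved in different directions. On chromosome 10, position 70102028 of the plus strand had a score of 625 in control and 2497 with hairpin 2, 4.00-fold higher (interval 3.66 to 4.37), and was not in the list of hairpin 1. On chromosome 12, position 56538455 of the plus strand went from 529 to 2112, 3.99-fold higher (3.63 to 4.40), with 792 for hairpin 1. On chromosome 3, position 23932805 of the plus strand went from 222 to 706, 3.18-fold higher (2.73 to 3.71), with 161 for hairpin 1. These sites were higher with hairpin 2 without scaling and are further above control under either scaling. Both hairpin comparisons use the same control list.

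Other deep sites kept their score or fell. On chromosome 9, position 132658079 of the minus strand had 306 in control and 330 with hairpin 2, a ratio whose interval includes equality (1.08-fold, 0.920 to 1.26), and 91 with hairpin 1. Its C-to-T share was 3.27% in control and 4.24% with hairpin 2. On chromosome 15, position 40764816 of the plus strand fell from 709 to 258, 2.75-fold lower (2.38 to 3.18), with 110 for hairpin 1, and on chromosome 11, position 75283559 of the plus strand fell from 691 to 249, 2.78-fold lower (2.40 to 3.22). Both falls are smaller than that of the median shared site, so that these sites lie above control after either scaling.

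The largest rises had C-to-T shares of 0.725% to 1.98% with hairpin 2. The score is the denominator of this share, so choosing sites by a higher hairpin 2 score favours low shares there. The low shares are therefore not a result separate from the choice. Among shared nuclear sites with a summed score of at least 50, the 6 largest rises ran from 4.38-fold to 6.89-fold. Position 120927234 of the minus strand of chromosome 10 led them, from 98 in control to 675 with hairpin 2 (6.89-fold, 5.57 to 8.60) and 171 with hairpin 1, with C-to-T shares of 1.02%, 1.19% and 1.17%. Position 45826129 of the plus strand of chromosome 12 went from 198 to 1341 (6.77-fold, 5.83 to 7.90) and 250 with hairpin 1, with shares of 1.01%, 0.969% and 2.00%. The other rises were at position 18744541 of chromosome 20 (plus strand, 23 to 138, with 38 for hairpin 1), 152183122 of chromosome 3 (plus strand, 17 to 101), 95132062 of chromosome 5 (plus strand, 41 to 188) and 79369470 of chromosome 17 (minus strand, 50 to 219). In control each of these 6 rises rests on 1 C-to-T read, apart from 45826129 with 2. The 22 shared sites that were more than 2-fold higher were also chosen by score, so the same limit holds for their shares. Their median C-to-T share went from 2.22% to 1.47% (20 sites with exact numbers in each list), and 6 of the 22 had a binomial p under 0.05 with hairpin 2 (27.3%, interval 10.7 to 50.2). At the 178 sites that were more than 2-fold lower the number was 106 (59.6%, 52.0 to 66.8), but these were far shallower with hairpin 2, with a median score of 11 against 204.5. Compared at a hairpin 2 score of 100 or more, it was 4 of 18 higher sites (22.2%, 6.41 to 47.6) and 10 of 22 lower ones (45.5%, 24.4 to 67.8), and these intervals overlap.

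The 6 largest falls were chosen by the same rule and ran from 33.1-fold to 162-fold. Position 16826300 of the plus strand of chromosome 1 went from 16513 to 102, 162-fold lower (interval 133 to 199), and to 59 with hairpin 1. Its C-to-T reads are bounded only, with a share of at least 3.43% in control and 27.5% with hairpin 2. Position 45928494 of the plus strand of chromosome 7 fell from 1209 to 34, 35.6-fold (25.3 to 51.6), with 28 for hairpin 1. Its C-to-T share was between 8.02% and 8.52% in control and 8.82% with hairpin 2, from 3 reads. Position 177027092 of the plus strand of chromosome 5 fell from 347 to 10, with 9 of those 10 reads changed, and position 21923454 of the minus strand of chromosome 1 from 364 to 11, with 10 for hairpin 1. The falls at 648054 of chromosome 19 (minus strand, 178 to 4) and 38846194 of chromosome 5 (plus strand, 194 to 5) rest on 1 C-to-T read each with hairpin 2. All 6 of these falls remain below control under both scalings.

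At shared sites with enough reads in both lists, the reconstructed C-to-T share was lower with hairpin 2 at most positions. Over 57 sites with 50 or more reads in both, the control median of 2.13% stood against 1.58% for hairpin 2, with 38 sites lower and 19 higher. The median paired difference was -0.527 percentage points (interval for the median -0.805 to -0.134), and the fitted background rates differ by about as much. Without a floor on coverage the difference had the opposite sign, 0.719 points over 217 sites (0 to 1.69), where a single changed read already makes a large share at a shallow hairpin 2 site. The clearest single case at equal coverage was position 21226173 of the minus strand of chromosome 2. It had 32 C-to-T reads of 657 in control, 4.87% (3.36 to 6.81), and 6 of 605 with hairpin 2, 0.992% (0.365 to 2.15), and these intervals do not overlap. Position 94295179 of the plus strand of chromosome 7 had 40 of 582 in control, 6.87% (4.96 to 9.24), 3 of 273 with hairpin 2 (0.227 to 3.18), and 6.32% with hairpin 1. Both sites were picked for this after their values were seen.

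**Figure D3:**
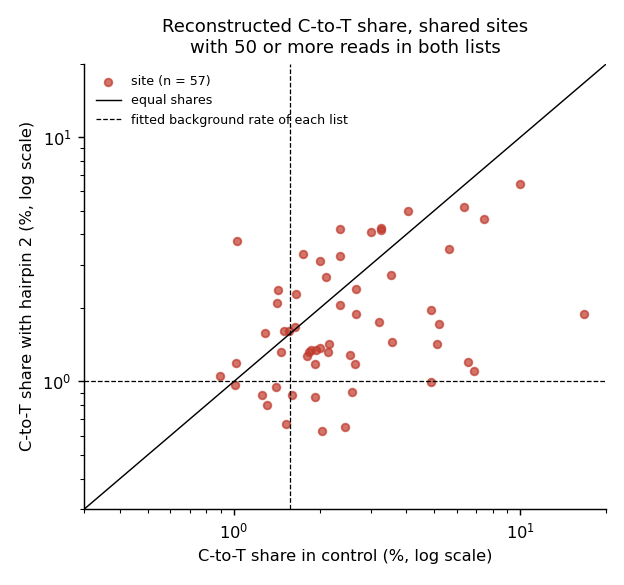
Reconstructed C-to-T share with hairpin 2 against control, in percent on log axes, at the 57 shared sites with exact read numbers and 50 or more reads in both lists. The solid line marks equal shares and the dashed lines the fitted background rates of 1.57% and 1.00%; 38 sites lie below the solid line.

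Among sites with an exact read number, those where nearly every read was changed were shallow. In control, 417 sites had an exact C-to-T share of 90% or more, with a median score of 4 and a maximum of 16. Of these, 10 were found with hairpin 2, or 2.40% (interval 1.16 to 4.37), against 1.18% of all control sites with scores of 3 to 5 and 1.66% at 6 to 9 (0.761 to 3.12). With hairpin 2, 9 of the 10 again had a share of at least 90%, the lowest being 88.9%. The 51 control sites without an exact number were left out, and some of them are deep and may have such a share. Position 177027092 of chromosome 5, for example, had between 21.9% and 100% of 347 reads changed in control. The low scores were therefore not shown for all sites of this kind.

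Sites also came in groups along a strand, and these were found again more often where control held more sites. Nuclear sites of both lists were grouped at gaps of up to 5000 nt, a distance chosen after seeing the lists. Of 2789 groups with 1 control site, 7.39% held a hairpin 2 site (interval 6.44 to 8.42), against 16.4% of 318 with 2 control sites (12.5 to 20.9), 24.6% of 61 with 3 (14.5 to 37.3) and 13 of 26 groups with 4 or more (29.9 to 70.1). Groups with more sites offer more positions to find, so the rise was not separated from their number. Of the 21 groups with 2 or more hairpin 2 sites, 19 also held a control site, against 286 of the 639 groups with any hairpin 2 site (44.8%). Groups with more hairpin 2 sites likewise offer more positions.

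The group with the most control sites was a stretch of 11393 nt on the minus strand of chromosome 2, from 21224714 to 21236106. It held 15 control sites with a summed score of 10736, 4 hairpin 2 sites with 1159 and 6 hairpin 1 sites with 851. All 4 hairpin 2 sites were control positions. The score at 21224714 went from 3331 to 291 (11.4-fold lower, 10.2 to 12.9), at 21233389 from 852 to 44 and at 21234077 from 1816 to 219 (8.29-fold lower, 7.20 to 9.58), while at 21226173 it was 657 and 605 (1.09-fold, 0.971 to 1.21). Between these lay control positions with no hairpin 2 site at scores of 1579 (21230785), 1084 (21228739) and 635 (21230360), which hairpin 1 listed at 148, 69 and 92. Their control C-to-T shares were 1.71%, 1.57% and 1.42%, near the fitted 1.57%, while the 4 positions found again had 2.34% to 5.05%. The other control positions without a hairpin 2 site were shallower and not all near that rate. Positions 21236106 (score 292), 21231059 (261) and 21230064 (61) had 1.03%, 1.53% and 1.64%. Positions 21232910 (69), 21233678 (51), 21232178 (20), 21230976 (18) and 21228326 (10) had 2.90%, 9.80%, 10.0%, 11.1% and 10.0%. The score ratios at the 4 positions found again ranged from 1.09-fold to 19.4-fold lower in these pooled lists, with no replicates to set that range against.

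Shorter groups were retained in part. On the plus strand of chromosome 2, from 20647453 to 20647968, 5 control sites with a summed score of 1803 stood against 3 hairpin 2 sites with 428. The control sites at 20647898 (908) and 20647968 (423) were found again at 131 and 36, and a hairpin 2 site with a score of 261 lay at 20647867, where control had none. On the minus strand of chromosome 14, from 38060488 to 38061342, both lists held 4 sites, of which 2 were the same: 38060488 (549 in control, 179 with hairpin 2, 131 with hairpin 1) and 38060989 (272 and 18). The hairpin 2 site at 38060502, which is 14 nt from the first, had the identical score of 179. On the plus strand of chromosome 7, from 94294669 to 94298635, 5 control sites with a summed score of 1958 stood against 2 hairpin 2 sites with 417. On the minus strand of chromosome 17, from 79917849 to 79919015, 1 of 4 control positions was found again, 79919015, with 1807 in control, 76 with hairpin 2 and 57 with hairpin 1.

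**Figure D4:**
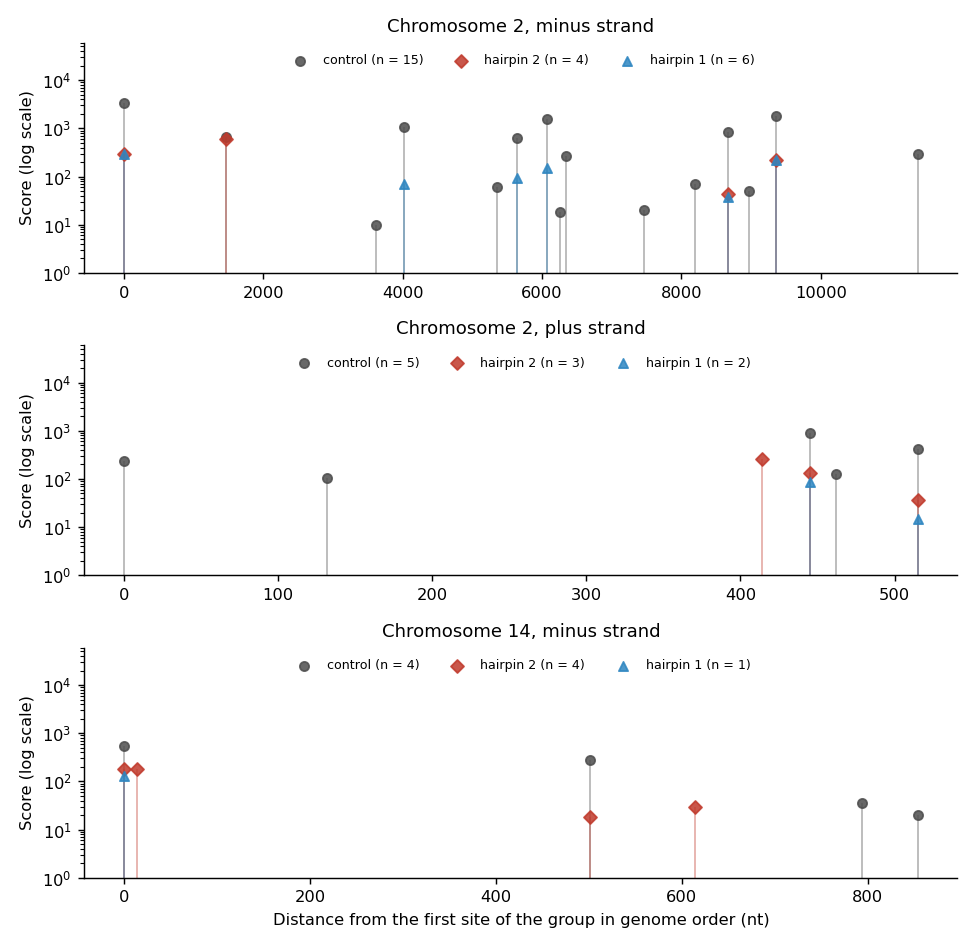
Score (log axis) of every listed site in 3 groups, by distance in nt from the first site in genome order, with control as circles, hairpin 2 as diamonds and hairpin 1 as triangles. In the upper panel 4 of 15 control positions carry a diamond, and at a distance of 1459 nt the circle and the diamond nearly coincide at 657 and 605.

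Among 26 groups with 4 or more control sites, 13 held no hairpin 2 site. Among those on the chromosomes named here, the most control sites were on the plus strand of chromosome 12 from 53431275 to 53434443, with 5 sites and a summed score of 280, and no site with hairpin 1 either. The largest summed score was 360, over 4 sites on the plus strand of chromosome 15 from 34522077 to 34522272, where hairpin 1 listed 1 site with a score of 50. Groups with lower summed control scores could hold hairpin 2 sites, as on the minus strand of chromosome 16 from 89346717 to 89351669 (5 control sites with 218, 1 hairpin 2 site with 36). Some groups had more sites with hairpin 2 than in control. An example was on the minus strand of chromosome 5, from 134260785 to 134263667, with 2 control sites (summed score 233) and 3 hairpin 2 sites (209), of which 1 position was shared. A further example was on the plus strand of chromosome 16, from 33962581 to 33965486, with 1 control site (score 3) and 2 hairpin 2 sites (162).

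The mitochondrial genome, which encodes both mitochondrial rRNAs and subunits of the respiratory chain, gave 25 control and 26 hairpin 2 sites, all on the plus strand and 12 of them shared. Each shared position was lower with hairpin 2, by 4.73-fold to 21.6-fold before any scaling, with a median of 6.50-fold. Falls of this size were not particular to the mitochondrial genome. The median fall was 7.46-fold at all shared sites with a control score of 500 or more and 11.8-fold at 200 to 499. Mitochondrial sites are counted in these medians too. The deepest was 2241, with 19241 in control, 2069 with hairpin 2 and 1608 with hairpin 1, 9.30-fold lower with hairpin 2 (8.89 to 9.74). The smallest fall was at 13775, from 1131 to 239, and the largest at 2786, from 2530 to 117 (21.6-fold), where hairpin 1 had 151. The C-to-T share at 2786 was between 4.66% and 4.78% in control and 4.27% with hairpin 2. At 10300 the score went from 3091 to 227 (13.6-fold, 11.9 to 15.7) and the share from 1.46% to 1.32%, and at 14400 from 1285 to 181 with shares of 4.05% and 4.97%. Hairpin 1 listed these at 327 and 187. By counting error alone, the interval of the ratio at 2786 lies above those at 13775 (4.11 to 5.46) and 10300, but the spread of such ratios between replicates is unknown.

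Mitochondrial positions in 1 of the lists alone included deep ones. The 14 hairpin 2 positions not in control had scores of 40 to 1585, with a median of 161. Position 1690 was the deepest, with 1585 reads of which 23 were changed (1.45%), and was listed in neither control nor hairpin 1. Positions 7733 (344), 14519 (308), 8680 (230) and 1712 (164) were not in control but were listed with hairpin 1, at 224, 121, 236 and 151. The 13 control positions without a hairpin 2 site had scores of 23 to 6647, with a median of 182, against a median of 1208 and a minimum of 248 at the 12 shared positions in control. The deepest were 6445 (6647, C-to-T share 2.48%) and 13551 (2269, share between 6.21% and 6.61%), and hairpin 1 listed both, at 559 and 295.

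The absence of position 6445 from the hairpin 2 list went with a site on chromosome 1. The hg19 sequence near the start of chromosome 1 holds a nuclear copy of part of the mitochondrial genome, and 14 plus-strand positions between 564545 and 570153 were listed in at least 1 of the 3 lists. Of these, 5 lay at 1 constant distance, 560549, from a listed mitochondrial position; the next most frequent distance joined 2 pairs. No list held both members of a pair: among 15 combinations of a pair and a list, 13 had 1 member listed, 0 had both and the others had neither. The partner of 6445 is 566994, which had a score of 919 with hairpin 2 and a C-to-T share of 2.72%, while control and hairpin 1 listed 6445 itself with 2.48% and 2.86%. Taken as 1 position, this site went from 6647 to 919, 7.23-fold lower. Position 4011 was listed in control (155) and with hairpin 1 (22), and its partner 564560 with hairpin 2 (50). Position 565684 of chromosome 1 was listed in control (384) and with hairpin 2 (71), and its partner 5135 with hairpin 1 (66). The position 570153 of chromosome 1 (408 in control) falls by this distance at 9604, beside the listed mitochondrial 9605 (741 in control), so that there both were listed 1 base apart. How the authors' alignment assigned reads that match both copies is not given in the sources used here, and its part in these absences was not tested.

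**Figure D5:**
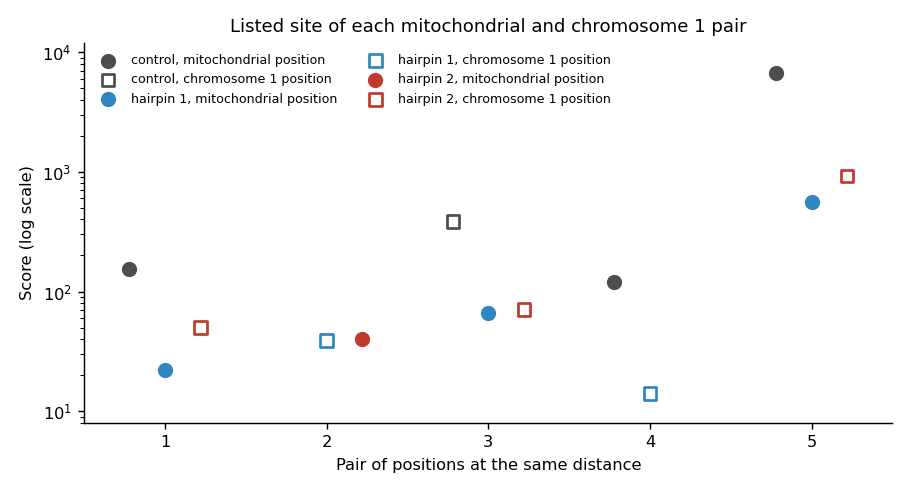
Score (log axis) of the listed member of each of the 5 pairs of a mitochondrial and a chromosome 1 position, by list. Filled circles are mitochondrial and open squares chromosome 1 positions, in black for control, blue for hairpin 1 and red for hairpin 2. No list shows both symbols for a pair, and in the fifth pair control (6647) and hairpin 1 (559) show the circle where hairpin 2 (919) shows the square.

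Sites of chromosomes 8, 18 and Y are counted above but not named. Among the others, the deepest nuclear hairpin 2 sites absent from control were spread over several chromosomes. Position 10244025 of the minus strand of chromosome 19 had a score of 1877 with 26 C-to-T reads (1.39%), and hairpin 1 listed it too, with 654 and 2.45%. Position 31818633 of the plus strand of chromosome 16 had 1106 with a share of 0.814%, and hairpin 1 did not list it. Position 87004927 of the plus strand of chromosome 2 had 538 (1.67%) and 62 with hairpin 1 (9.68%). Positions 57187333 of chromosome 17 (minus strand, 475), 113541473 of chromosome 13 (plus strand, 427) and 112255654 of chromosome 1 (plus strand, 417) had shares of 1.26%, 0.703% and 0.719%. Position 112255654 was also listed with hairpin 1, at 168. Absence from the control list does not mean an absence of control reads, since a position without a C-to-T read there would not be listed. Nor does it mean an absence of C-to-T reads, since most numbered positions are not listed either.

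Deep nuclear control sites absent with hairpin 2 beyond the chromosome 2 stretch were 46754879 of chromosome 12 (minus strand, 3479), 7032275 of chromosome 4 (plus strand, 1293), 237032992 of chromosome 2 (plus strand, 972) and 19116254 of chromosome 9 (minus strand, 783). Their C-to-T shares were 1.55%, 1.78%, 3.40% and 1.28%. The site at 237032992, with 33 changed reads, stood furthest above the fitted background of these, and hairpin 1 listed it at 211. Hairpin 1 also listed 19116254, at 55 with a share of 3.64%, but neither 46754879 nor 7032275.

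By chromosome, the ratio of control to hairpin 2 sites had a median of 5.49 over 23 chromosomes, the autosomes and X. It ran from 3.45 on chromosome 5 (138 and 40 sites) to 10.0 on chromosome 22 (100 and 10 sites). The mitochondrial genome (25 and 26 sites, ratio 0.962) and chromosome Y (13 and 1 sites) were left out of this range. Chromosome X had 94 control and 14 hairpin 2 sites, a ratio of 6.71, but 0 sites in common. A limit of 3 counts allows a share of found control sites of up to 3.19%, and the exact interval reaches 3.85%, against 6.38% on the autosomes (interval 5.60 to 7.22). Hairpin 1 found 1 of the 94. The control sites of X were shallower, with a median score of 9 against 14 on the autosomes, the share was not compared at matched scores, and X was picked out after the values of all chromosomes were seen.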

How the data were processed

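RNA from HepG2 cells was immunoprecipitated with an m6A antibody and sequenced, per the labels' protocols. Bowtie 1.1.2, cutadapt 1.13, FastQC 0.11.5 and build hg19 are named in the submitters' processing notes. For the site caller and its thresholds, nothing is stated there. The authors deposited 1 list per shRNA, pooled over 3 replicates, with a score per site whose meaning is not stated. The score was read as reads over the site after the running numbers in the site names had been ordered by a binomial tail probability at a fitted rate. The step that derives C-to-T reads from the order was tested on simulated data at a known rate; the fit of the rate was not.

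Lists were matched by chromosome, position and strand in pandas 2.3.3 and scipy 1.17.1 under Python 3.11.15 (numpy 2.4.6; figures with matplotlib 3.10.9). Shares have exact Clopper-Pearson intervals at 95%, medians have order-statistic intervals, and score ratios have conditional binomial intervals. For single sites they cover the counting error of reads only, and over many sites they take the sites as independent. With 1 pooled list per shRNA there is no spread between replicates, so no test was made.

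Sites were named by rule. These were the 10 nuclear shared sites with the highest smaller score, the 6 largest falls and 6 largest rises among nuclear shared sites with a summed score of at least 50, the 8 highest sites of each list alone, and the mitochondrial sites. Sites of the larger groups and of the chromosome 1 copy were added after their values were seen. Members, lists and rules were chosen with earlier results of these data known. Placing sites in genes, transcript regions and sequence motifs, and 13 gene lists drawn up for it, needed an hg19 genome or annotation and were not used here. Alternatives covered minimum scores, matching distance, merging of neighbours, the mitochondrial genome, scaling and coverage floors.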

Additional observations from a re-analysis of the deposited data

How the results depend on the processing

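No paired analysis was possible because the 3 replicates of each shRNA share 1 pooled list, and leaving out a replicate was not possible for the same reason. The share of control sites found again stayed between 6.22% and 7.26% under minimum scores, matching distances of 10 and 50 nt, merging, leaving out the mitochondrial genome or joining the chromosome 1 copy, and was 4.91% with at least 2 reconstructed C-to-T reads in both lists. The share of hairpin 2 sites in control was 34.6% to 38.2%, and that of control sites with a score of 500 or more found again was 57.1% to 62.5%. The median log2 score ratio of shared sites, -2.30, was -1.47 at scores of at least 20 in both lists and -2.93 at control scores of at least 100. It turned to 0.40 with mitochondrial scaling and 0.01 with scaling by summed scores. The same 2 scalings turned the log2 ratio at 21226173 of chromosome 2 to 2.58 and 2.19, at 94295179 of chromosome 7 to 1.61 and 1.22, at 40764816 of chromosome 15 to 1.24 and 0.85, and at 75283559 of chromosome 11 to 1.23 and 0.84. They move every site ratio by 2.70 or 2.31, so the other 18 named ratios moved without a change of direction. The median difference in C-to-T share, 0.719 points without a floor, was -0.510 at scores of at least 20, -0.527 at 50 and -0.527 at 100. The copy-joining, C-to-T read and control score settings were chosen after seeing the data. Alternatives for transcript regions, motifs, genes and gene lists were not run. Depth limits the shallow sites: a position without a C-to-T read is not listed, and its absence is not an absence of reads. Most numbered positions are not listed either, by a rule that is not stated.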
